A study of Saccharomyces cerevisiae with 4 samples.

Results

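The genes of the glyoxylate cycle and of malate metabolism were described in the industrial strain CY of Saccharomyces cerevisiae, grown under heat and high sugar or under ordinary conditions. The 8 genes were taken by name: ICL1, MLS1, DAL7, MDH1, MDH2, MDH3, MAE1 and FUM1. All 8 were among the 5897 genes of the deposited table, and all 8 passed the filter on low values. Stress meant growth at 36 °C in 10% glucose (2 libraries), and non-stress growth at 30 °C in 2% glucose (2 libraries). All 4 libraries came from strain CY grown in the same peptone and yeast extract medium, shaken at 200 rpm and harvested at 10 h. Temperature and glucose changed together, so that their effects cannot be told apart. The sample labels used here give neither the glucose left at harvest nor the growth stage then. The glucose percentages therefore name the medium as made up, and not what the cells met at 10 h. The labels do not say that replicates came from separate cultures, so the p-values speak for the scatter of these libraries alone, which may be technical. Estimated depth was 18100000 to 18700000 fragments per library.

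The glyoxylate cycle lets yeast build sugars from acetate, ethanol or fatty acids. Isocitrate lyase splits isocitrate into succinate and glyoxylate, and malate synthase joins glyoxylate to acetyl-CoA to give malate, so that the carbon dioxide-releasing steps of the tricarboxylic acid cycle are bypassed. Malate dehydrogenases turn malate into oxaloacetate in mitochondria, cytosol and peroxisomes, fumarase makes malate from fumarate, and malic enzyme turns malate into pyruvate. Glucose is known to repress many genes of this route in laboratory yeast, and the malate synthase Dal7 is known to serve the use of allantoin as a nitrogen source, where glyoxylate is a product.

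The 2 malate synthase genes encode closely related proteins of 554 residues each, with 81.0% identical residues and 74.1% identical coding bases. The opening 90 coding bases of each are shown to let the reader see how far reads of one gene can be told from reads of the other (R64 reference, RefSeq; MLS1 at chrXIV:406358-406447 on the plus strand and DAL7 at chrIX:414590-414679 on the minus strand). Capitals mark the 37 bases that differ, a larger share than over the whole coding sequences, so the opening shows more difference than the genes as a whole.
MLS1: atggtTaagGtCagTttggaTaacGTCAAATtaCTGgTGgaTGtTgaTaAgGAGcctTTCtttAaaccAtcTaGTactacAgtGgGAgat
DAL7: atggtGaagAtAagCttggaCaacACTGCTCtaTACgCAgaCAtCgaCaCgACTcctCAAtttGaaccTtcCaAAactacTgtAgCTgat
None of the 1616 windows of 50 bases in either coding sequence occurs in another coding sequence, and the same holds for all windows of the other members, so these values do not rest on a split of identical reads in the reference. Strain CY may differ from the reference in sequence, which was not tested.

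The 3 malate dehydrogenases differ more, with 40.6% to 47.5% identical residues between pairs. The ends of their coding sequences are shown beside those of the malate synthases, because a peroxisomal signal can stand there (R64, last 30 bases with the stop codon). Capitals mark the 3 codons of the peroxisomal targeting tripeptide SKL (serine, lysine, leucine). Only SKL itself was searched, and 14 of 6027 coding sequences of the reference end in it, among them MLS1, DAL7 and MDH3.
MLS1: gcgacgcccactgatttgAGCAAATTGtga
DAL7: gccaaaccagttgacttaAGTAAATTAtag
MDH3: agtttcatcctagactctTCCAAGCTAtga
MDH2: ttcgttgcatcgagatctgcatcatcttaa
MDH1: aagggtgtcaactttgttgctagtaaatag
These stretches lie at chrXIV:407993-408022 (plus strand) for MLS1, chrIX:413015-413044 (minus strand) for DAL7, chrIV:315357-315386 (minus strand) for MDH3, chrXV:81787-81816 (minus strand) for MDH2 and chrXI:280098-280127 (plus strand) for MDH1. Mdh1 is known as the mitochondrial enzyme and Mdh2 as the cytosolic one, which these ends do not show.

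The upstream regions were searched for the carbon source response element, the site through which the activators Cat8 and Sip4 are known to act. In the 600 bases before the start codon, on either strand, matches to its consensus were found for ICL1, MLS1 and MDH2, which is 3 of the 8 genes, against 32 of 5892 genes (0.543%) with a window of that length. The stretches around them are printed with the matches in capitals, and that of DAL7 with its GATAAG matches, the core read by the nitrogen-responsive GATA factors, in capitals.
ICL1: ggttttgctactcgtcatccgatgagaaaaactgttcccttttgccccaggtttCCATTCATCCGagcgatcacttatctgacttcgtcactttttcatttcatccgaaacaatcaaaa
MLS1: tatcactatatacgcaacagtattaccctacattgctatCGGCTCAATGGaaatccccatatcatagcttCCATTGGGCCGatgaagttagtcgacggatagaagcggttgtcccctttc
MDH2: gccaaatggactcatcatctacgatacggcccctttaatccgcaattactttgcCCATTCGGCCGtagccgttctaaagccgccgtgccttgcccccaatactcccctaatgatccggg
DAL7: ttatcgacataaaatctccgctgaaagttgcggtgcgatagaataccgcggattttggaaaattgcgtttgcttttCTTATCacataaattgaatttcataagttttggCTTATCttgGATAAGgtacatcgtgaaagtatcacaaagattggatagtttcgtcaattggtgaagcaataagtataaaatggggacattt
The stretches are on R64 at chrV:287248-287366 (minus strand, ICL1), chrXIV:405788-405907 (plus strand, MLS1), chrXV:83233-83351 (minus strand, MDH2) and chrIX:414765-414964 (minus strand, DAL7). A match is a description of the letters and not a shown binding site. The published consensus may itself rest on promoters of this route, members included, which was not checked. The share of members with a match is therefore no independent result.

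Of the 8 transcripts, 6 were far more abundant in the stress libraries and 2 were far less abundant. ICL1, MLS1, MDH1, MDH2, MDH3 and FUM1 rose, and DAL7 and MAE1 fell. By limma, with the Benjamini-Hochberg adjusted p over all 5784 genes tested at a threshold of 0.05, all 8 changed, but 87.7% of all genes did, 39.8% of them higher and 47.9% lower as shares of the genes tested. The groups did not overlap for any of the 8, as for 93.8% of all genes. A log2 fold change of at least 3, on the log2(FPKM + 1) scale, was reached by 5 members, against 3.70% of all genes. The other rising gene, MDH3, stayed below it. Both falling genes passed a log2 fold change of -3, against 5.91% of all genes. The median log2 fold change of the 8 was 3.79, and that of all genes tested was -0.14.

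**Figure D1:**
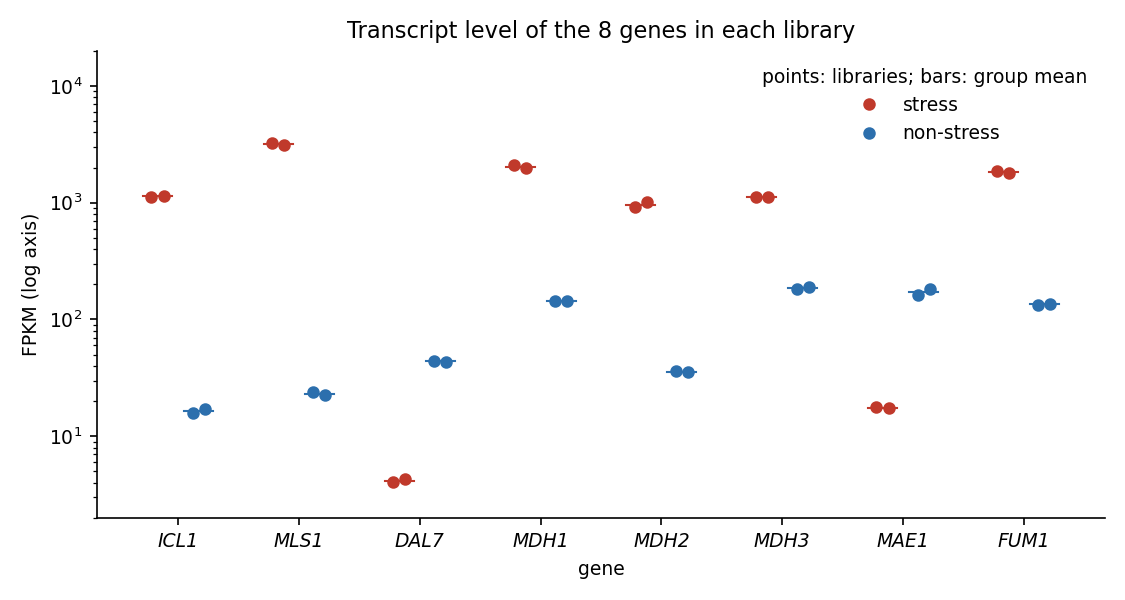
FPKM of the 8 genes in each library on a log axis; points are libraries, short bars are group means, with the 2 stress libraries left of the 2 non-stress libraries. The replicates lie close together, and DAL7 and MAE1 are the genes whose stress points lie below the non-stress points.

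**Figure D2:**
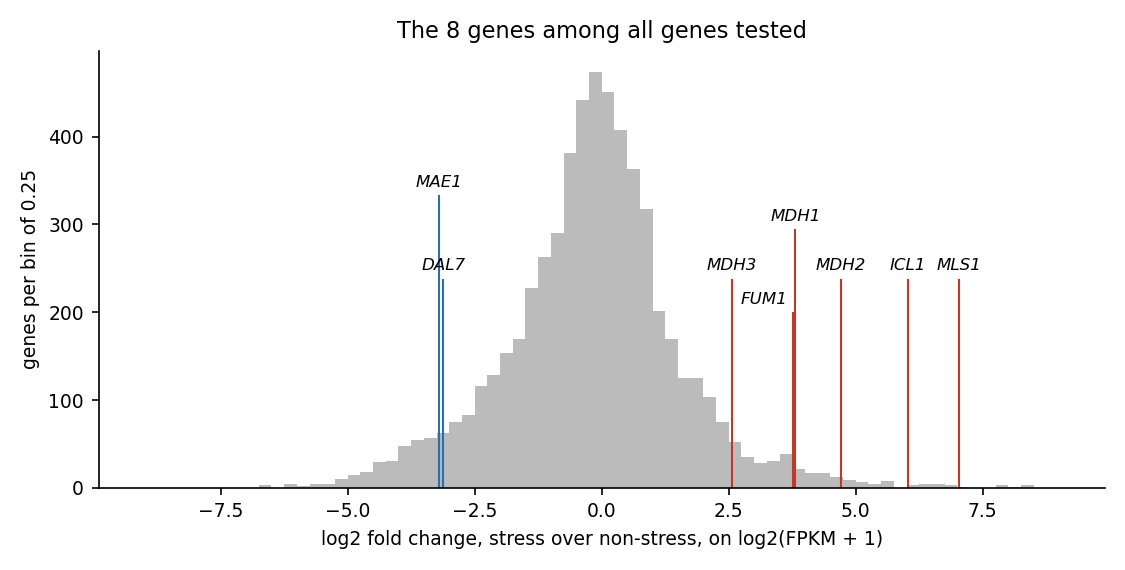
Histogram of the log2 fold change (stress over non-stress, on log2(FPKM + 1)) of the 5784 genes tested, in bins of 0.25, with lines at the 8 genes. MLS1 at 7.03 and ICL1 at 6.03 lie in the far upper tail, and MAE1 at -3.21 and DAL7 at -3.12 in the lower tail.

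Isocitrate lyase and malate synthase, the enzymes that define the cycle, changed most. ICL1 (chromosome V, 285241 to 286914, minus strand, 1 coding exon) had 1128 and 1136 FPKM in the stress libraries, against 15.7 and 17.1 FPKM in the non-stress libraries. FPKM scales fragments to gene length and to the mapped fragments of a library, so levels of different genes can be set side by side. The stress values lay 69.2-fold above the non-stress values as a ratio of means. The log2 fold change was 6.03 ± 0.057 (SE, adjusted p = 4.42e-12 by limma), the rise in place 22 from the top among all genes tested. MLS1 (chromosome XIV, 406358 to 408022, plus strand, 1 coding exon) had 3220 and 3096 FPKM in stress and 23.9 and 22.5 FPKM in non-stress libraries. Its ratio was 136 and its log2 fold change 7.03 ± 0.053 (SE, adjusted p = 1.58e-12 by limma); it was the member with the largest rise, in place 8 of all genes. The level of MLS1 over that of ICL1 was 2.85 and 2.73 in stress libraries and 1.52 and 1.32 in non-stress libraries.

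DAL7, the other malate synthase, moved the opposite way. It lies on chromosome IX at 413015 to 414679 on the minus strand, as 1 coding exon. DAL7 had 4.03 and 4.26 FPKM in the stress libraries, against 44.0 and 43.6 FPKM in the non-stress libraries, so that it was 10.6-fold lower under stress (log2 fold change -3.12 ± 0.090, SE; limma adjusted p = 1.14e-09). These are worth about 119 and 126 fragments in the stress libraries and 1341 and 1328 in the non-stress libraries at the estimated depth. The stress numbers are the smallest behind any value of a member. Its stress level was the lowest of the 8 genes.

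The makeup of the malate synthase transcripts therefore differed between the conditions. DAL7 was 0.125% and 0.137% of the summed malate synthase FPKM in stress libraries, and 64.8% and 65.9% in non-stress libraries. MLS1 made up 99.9% ± 0.00876 in stress and 34.6% ± 0.756 in non-stress libraries (SD, n = 2 each). The family sum was 3162 ± 87.3 FPKM under stress and 67.0 ± 1.27 FPKM without (SD, n = 2 each). All shares of a family were separated between the groups, but an exact two-sided permutation test over 2 against 2 libraries gives p = 0.333 at best, and each share reported here had that value.

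**Figure D3:**
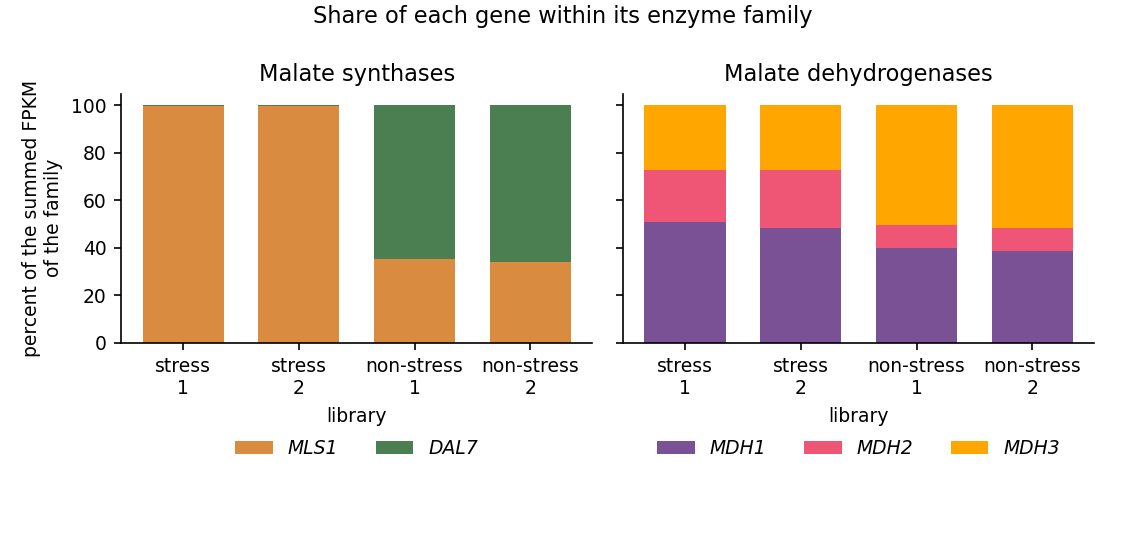
Percent of the summed FPKM of an enzyme family held by each of its genes, by library, with stress libraries on the left; the left panel shows malate synthases and the right panel malate dehydrogenases. DAL7 holds 0.125% and 0.137% of the malate synthase sum in stress libraries and is hardly visible there, and the largest malate dehydrogenase share is that of MDH1 in stress libraries and of MDH3 in non-stress libraries.

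The 3 malate dehydrogenase genes rose by different amounts. MDH2, the cytosolic enzyme of gluconeogenesis (chromosome XV, 81787 to 82920, minus strand), had 922 and 1004 FPKM in stress and 35.8 and 35.6 FPKM in non-stress libraries. That is a ratio of 27.0, or 4.71 ± 0.057 on the log2 scale (SE; limma adjusted p = 9.17e-12). MDH1, the mitochondrial enzyme of the tricarboxylic acid cycle (chromosome XI, 279123 to 280127, plus strand), had 2101 and 1969 FPKM in stress libraries and 145 and 143 FPKM in non-stress libraries. Its log2 fold change was 3.81 ± 0.052 (SE; limma adjusted p = 1.38e-11), a 14.1-fold rise. MDH3, the peroxisomal enzyme (chromosome IV, 315357 to 316388, minus strand), rose 5.94-fold, to 1119 and 1109 FPKM in stress libraries, against 184 and 191 FPKM in non-stress libraries. This was the smallest rise among the members (log2 fold change 2.56 ± 0.049, SE; limma adjusted p = 8.08e-11).

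Within the malate dehydrogenase family the peroxisomal enzyme held a smaller share under stress. MDH1 held 49.5% ± 1.76 of the family sum under stress and 39.2% ± 0.862 without. MDH2 held 23.4% ± 1.66 under stress and 9.73% ± 0.131 without. MDH3 held 27.1% ± 0.106 under stress and 51.1% ± 0.993 without (SD, n = 2 each). The summed FPKM of the 3 genes was 4112 ± 41.2 in stress and 367 ± 3.40 in non-stress libraries.

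FUM1, the only fumarase gene of yeast, whose product works in mitochondria and cytosol, moved like MDH1. FUM1 (chromosome XVI, 47336 to 48802, plus strand) had 1883 and 1806 FPKM in stress and 134 and 136 FPKM in non-stress libraries, a 13.6-fold rise (log2 fold change 3.76 ± 0.049, SE; limma adjusted p = 1.13e-11). The level of MDH1 over that of FUM1 was 1.12 and 1.09 in stress libraries and 1.08 and 1.05 in non-stress libraries.

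MAE1, the mitochondrial malic enzyme that removes malate by turning it into pyruvate, fell. MAE1 (chromosome XI, 382716 to 384725, minus strand) had 17.8 and 17.3 FPKM in the stress libraries, against 161 and 182 FPKM in the non-stress libraries. It was 9.77-fold lower under stress (log2 fold change -3.21 ± 0.073, SE; limma adjusted p = 2.35e-10), in place 292 from the bottom. DAL7 was in place 318 from the bottom. No other member had replicates as far apart relative to their mean as MAE1 in the non-stress libraries, at 171.5 ± 15 FPKM (SD, n = 2).

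The order of levels differed in part between the conditions. Under stress it ran MLS1, MDH1, FUM1, ICL1, MDH3, MDH2, MAE1 and DAL7, from 3158 to 4.14 FPKM as means. In non-stress libraries it ran MDH3, MAE1, MDH1, FUM1, DAL7, MDH2, MLS1 and ICL1, from 188 to 16.4 FPKM. Under both conditions MLS1 lay above ICL1, and MDH1 above FUM1 and FUM1 above MDH2. The library values of neighbours in either order did not overlap. Relative to the SD, the closest pair was MDH3 and MAE1 in non-stress libraries, whose means differed by 16.0 FPKM with an SD of up to 15, about as much as the replicate spread. ICL1 and MDH3 under stress differed by 18.1 FPKM, with an SD of up to 6.82.

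Together the 8 transcripts held 0.982% and 0.952% of the summed FPKM in stress libraries, and 0.0752% and 0.0764% in non-stress libraries (exact two-sided permutation p = 0.333, the smallest that 2 against 2 libraries allow). With the cytosolic ribosomal protein genes left out of the total these became 0.982% ± 0.0211 under stress and 0.0972% ± 0.00204 without (SD, n = 2 each). In bulk RNA, a change in every cell and a change in some of the cells cannot be told apart.

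The genes nearest to each member in pattern were found by Euclidean distance on log2(FPKM + 1) over the 4 libraries, which reads both the level and the change. FDH1, formate dehydrogenase, was nearest to MLS1 at a distance of 0.25, followed by the aconitase gene ACO1 at 0.90. REG2, a phosphatase regulator, and GND2, a phosphogluconate dehydrogenase, were nearest to ICL1 at 0.46 and 0.70. MIR1, the mitochondrial phosphate carrier, and ATP16, a subunit of ATP synthase, were nearest to MDH1 at 0.06 and 0.11. FUM1 had RTC3 at 0.20 and the ATP synthase subunit gene TIM11 at 0.22. MDH2 had the glutathione peroxidase gene GPX1 at 0.19 and the glycerol-3-phosphate dehydrogenase gene GUT2 at 0.60. MDH3 had the mitochondrial ribosomal protein gene MRPS12 at 0.27 and YJR085C at 0.31.

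The falling members had other genes near them in pattern. DAL7 was nearest to SRO9, which encodes an RNA-binding La motif protein, at 0.29. The next was YOR192C-B at 0.30, of which 97.8% of windows occur in other coding sequences, so that its value is uncertain. MAE1 was nearest to MIS1, a mitochondrial folate enzyme, at 0.28 and to DIM1, a ribosomal RNA dimethyltransferase, at 0.31.

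The enzymes that act beside the members were followed in a list of 8 partners, of which 6 rose and 2 fell. Their median log2 fold change was 4.54, against -0.14 for all genes tested, of which 39.8% rose and 47.9% fell. SFC1, which carries succinate made by the cycle into mitochondria in exchange for fumarate, had 1786 and 1782 FPKM in stress and 5.49 and 3.42 FPKM in non-stress libraries (log2 fold change 8.38 ± 0.14, SE). IDP2, the cytosolic NADP-dependent isocitrate dehydrogenase, had 2027 and 1959 FPKM in stress and 6.70 and 6.06 FPKM in non-stress libraries (8.08 ± 0.060). AGX1, which makes glycine from glyoxylate and so competes with malate synthase for it, had 1717 and 1686 FPKM in stress libraries and 19.6 and 20.9 FPKM in non-stress libraries (6.33 ± 0.054). All 3 passed the limma threshold.

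ACO1, the main aconitase, had 2504 and 2443 FPKM under stress, against 31.98 and 35.5 FPKM without (log2 fold change 6.16 ± 0.060, SE; limma adjusted p = 4.99e-12). ACS2, the acetyl-CoA synthetase used during growth on glucose, was among the partners that fell, at 74.1 and 77.9 FPKM under stress and 193 and 184 FPKM without, and was named after its values were seen.

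All 13 other enzymes of the tricarboxylic acid cycle rose, beside 39.8% of all genes tested. Their median was 3.38 on the log2 scale, against -0.14 for all genes tested. The succinate dehydrogenase gene SDH2 rose most, with 2905 and 2882 FPKM under stress and 91.8 and 92.3 FPKM without (4.96 ± 0.047, SE; limma adjusted p = 4.42e-12). SDH3, SDH1 and the mitochondrial citrate synthase gene CIT1 had log2 fold changes of 4.41 ± 0.054, 4.40 ± 0.049 and 4.15 ± 0.050 (SE). MDH1 and FUM1, the members that belong to this cycle too, lay within the range of these 13 genes.

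Of 11 genes around oxaloacetate and pyruvate 5 rose and 6 fell (median log2 fold change -0.31), a split near that of all genes tested, of which 39.8% rose and 47.9% fell. PCK1, which turns oxaloacetate into phosphoenolpyruvate, and FBP1, the fructose-1,6-bisphosphatase of gluconeogenesis, had log2 fold changes of 8.25 ± 0.068 and 8.41 ± 0.049 (SE). CDC19, the main pyruvate kinase, which acts in the opposite direction, had 290 and 291 FPKM under stress and 7909 and 8271 FPKM without (-4.79 ± 0.052, SE; limma adjusted p = 7.13e-12). MPC3, a subunit of the mitochondrial pyruvate carrier, had 729 and 725 FPKM under stress and 103 and 80.9 FPKM without (2.98 ± 0.096, SE; limma adjusted p = 2.41e-09). The carrier genes MPC1 and MPC2, named after their values were seen, were lower, by -0.31 ± 0.058 and -0.62 ± 0.051 on the log2 scale (SE). MPC2 averaged 936.5 FPKM under stress and 1435.4 FPKM without. The oxaloacetate carrier gene OAC1 and the dicarboxylate carrier gene DIC1, named after their values were seen, fell as well; OAC1 changed by -1.86 ± 0.10 and DIC1 by -1.57 ± 0.060 on the log2 scale (SE).

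**Figure D4:**
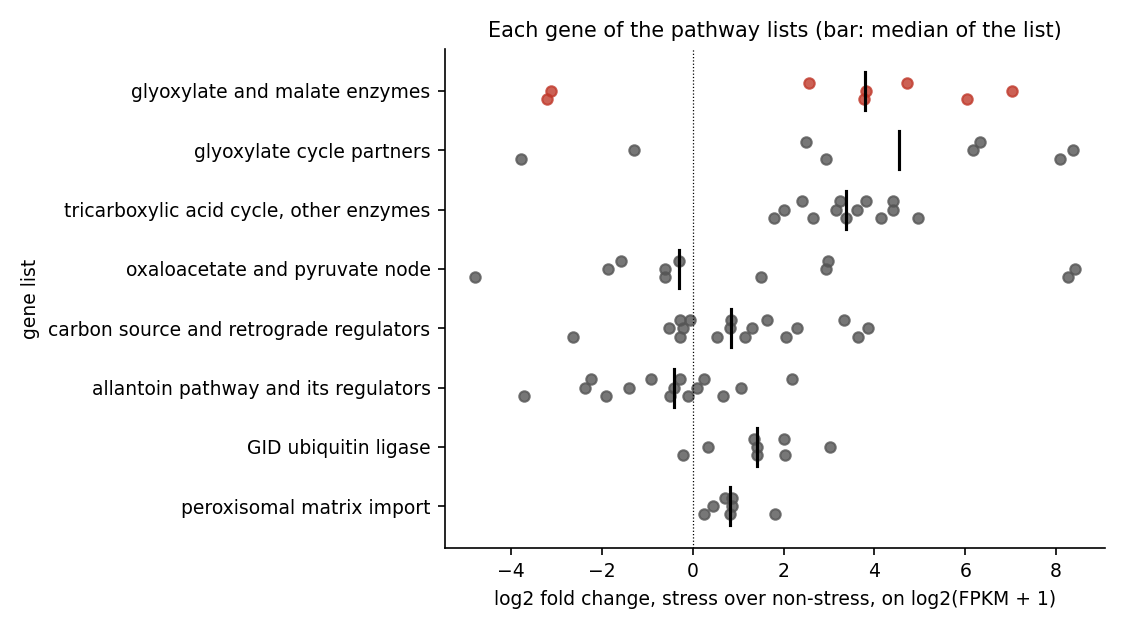
Log2 fold change (stress over non-stress, on log2(FPKM + 1)) of each gene in the 8 members and in 7 pathway lists; points are genes, spread vertically only for legibility, and bars are list medians. All tricarboxylic acid cycle enzymes lie right of 0, while the oxaloacetate and pyruvate list reaches from CDC19 at -4.79 to FBP1 at 8.41.

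Among 17 regulators of carbon source use, retrograde signalling and oleate response, 11 rose, 5 fell and RTG2 did not pass (median log2 fold change 0.84). Of all genes tested, 39.8% were higher and 47.9% lower. The regulators that fell numbered 3 after quantile normalization and 2 after median centring. CAT8 and SIP4, the activators of the carbon source response element, had log2 fold changes of 3.64 ± 0.090 and 3.86 ± 0.075 (SE). CAT8 had 138 and 133 FPKM under stress and 10.99 and 9.03 FPKM without, and SIP4 had 122 and 118 FPKM under stress and 7.74 and 7.02 FPKM without. HAP4, the activating subunit of the complex that binds CCAAT in respiratory genes, had 679 and 706 FPKM under stress and 71.7 and 64.5 FPKM without (3.33 ± 0.062, SE; limma adjusted p = 6.8e-11). MIG1, a repressor active in glucose, had 21.0 and 22.2 FPKM under stress and 146 and 133 FPKM without (-2.64 ± 0.069, SE; limma adjusted p = 6.11e-10). RTG2, a retrograde signalling gene, averaged 79.9 ± 4.15 FPKM under stress and 84.0 ± 3.84 FPKM without (SD, n = 2 each); it was named after its values were seen.

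The 3 members whose upstream windows hold the carbon source response element were those with the 3 largest rises, MLS1, ICL1 and MDH2. MLS1 has 2 matches, and its first lies 531 bases before the start codon. The matches of ICL1 and MDH2 begin 398 and 377 bases before it. Of the 32 genes with a match, 31 were tested, of which 19 rose and 11 fell, beside 39.8% higher and 47.9% lower among all genes tested. Their median was 1.23 on the log2 scale, and 9 reached a log2 fold change of at least 3, as did 3.70% of all genes tested. FBP1, PCK1 and SIP4 were among those that rose. Because the consensus may rest on promoters of such genes, these matches and rises are not independent of its choice. The 32 windows hold 26 distinct elements, because 8 of them lie in the windows of more than 1 gene. DCP2 shares both elements of MLS1 and TRM13 that of MDH2. DCP2 had a log2 fold change of 0.56 and TRM13 of -0.79.

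The 5 shorter motifs searched in the same way were each found upstream of 26.9% to 70.6% of all genes. CCAAT was in the windows of all 8 members and of 70.6% of genes; 1 of the CCAAT matches of MLS1 overlaps its carbon source response element. AGGGG, the core of the general stress response element, was found for 6 members and for 39.9% of genes. TTGGNG, a loose form of the core bound by the activator Adr1, was found for 7 members and 60.2% of genes. It shares bases with CCAAT read on the other strand, so the 2 counts are not separate. In ICL1, DAL7, MDH2, MDH3, MAE1 and FUM1 the TTGGNG match overlaps a CCAAT match, and only in MDH1 does it not. GTCAC, read by the retrograde factors Rtg1 and Rtg3, was found for 4 members and 49.0% of genes. GATAAG was found for ICL1, FUM1 and DAL7, against 26.9% of genes. DAL7 had 3 GATAAG matches, ICL1 had 2 and FUM1 had 1.

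DAL7 belongs to a cluster of allantoin genes, and its neighbours did not all move with it. Going up in coordinates on chromosome IX the cluster holds DAL1, DAL4, DAL2, DCG1, DAL7 and DAL3. DAL3, ureidoglycolate lyase, which releases glyoxylate, lies 350 bases beyond the start codon of DAL7. It had 3.50 and 3.29 FPKM under stress and 21.2 and 22.2 FPKM without (log2 fold change -2.37 ± 0.11, SE; limma adjusted p = 2.93e-08). DCG1, on the other side, had 3.63 and 3.78 FPKM under stress and 16.0 and 17.4 FPKM without (-1.91 ± 0.11, SE). DAL1, allantoinase, had 7.13 and 6.70 FPKM under stress and 20.2 and 19.8 FPKM without (-1.41 ± 0.097, SE).

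DAL2, allantoicase, rose in the same cluster, with 95.1 and 92.6 FPKM under stress and 20.0 and 20.0 FPKM without (log2 fold change 2.18 ± 0.063, SE; limma adjusted p = 1.13e-09). The allantoin permease gene DAL4 did not pass, at 9.16 and 9.76 FPKM under stress and 9.26 and 8.47 FPKM without (0.09 ± 0.11, SE; limma adjusted p = 0.481). Outside the cluster, the flanking gene YVH1 was lower under stress, at 8.65 and 8.32 FPKM against 118 and 128 FPKM without, and MGA2 on the other flank had a log2 fold change of -0.83.

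**Figure D5:**
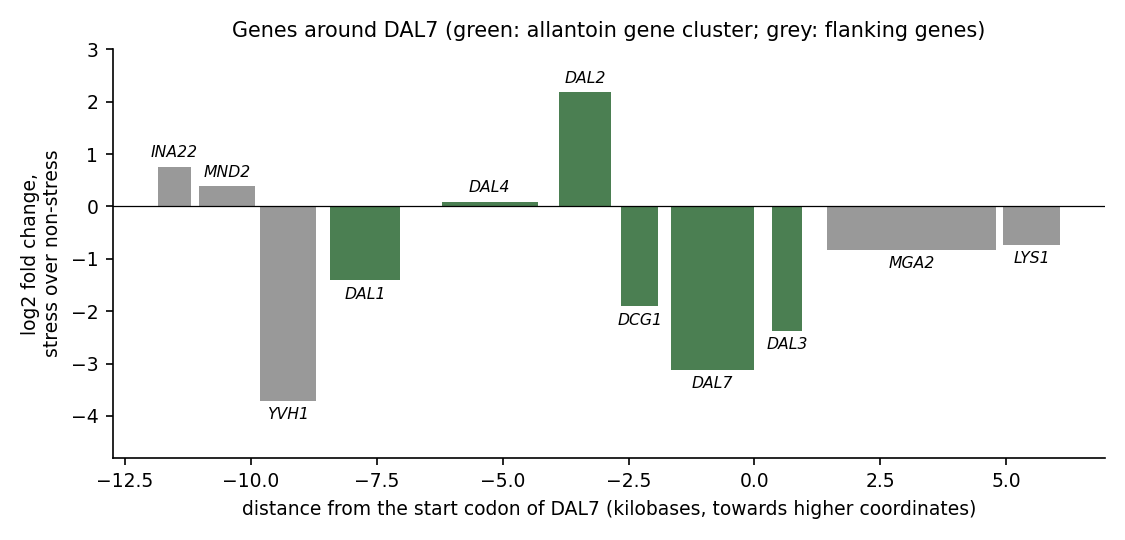
Log2 fold change (stress over non-stress) of genes around DAL7, drawn at their distance in kilobases from its start codon; bar width is gene length, green bars are the allantoin cluster and grey bars flanking genes. DAL2 at 2.18 stands between DAL4 at 0.09 and DCG1 at -1.91, and DAL7 at -3.12 has the largest fall within the cluster.

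In the whole list of 15 allantoin genes and their regulators 4 rose, 9 fell and 2 did not pass (median log2 fold change -0.42), beside 39.8% higher and 47.9% lower among all genes tested. After quantile normalization 5 rose and 6 fell. DUR1,2, urea amidolyase, had the largest fall of the list, with 8.92 and 8.44 FPKM under stress and 129 and 124 FPKM without (-3.72 ± 0.069, SE; limma adjusted p = 6.83e-11). DAL80, a GATA-type repressor of these genes, had 0.57 and 1.21 FPKM under stress and 7.45 and 7.98 FPKM without (-2.23 ± 0.20, SE; limma adjusted p = 4.68e-06). At these low levels the pseudocount sets the size, which was -3.06 on the log2 scale with a pseudocount of 0.1. URE2, a regulator of nitrogen catabolite repression that was named after its values were seen, was the other gene that did not pass, at a log2 fold change of -0.10.

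Genes for the removal and the import of these enzymes mostly rose. Of 8 genes of the GID ubiquitin ligase, 7 rose and 1 fell, beside 39.8% higher and 47.9% lower among all genes tested. With equal FPKM sums without ribosomal protein genes 6 were higher and 1 was lower. The list's median was 1.41 on the log2 scale. The ligase is known to mark Mdh2, Icl1, Fbp1 and Pck1 for degradation when glucose returns. UBC8, its ubiquitin-conjugating enzyme, had 643 and 633 FPKM under stress and 79.1 and 76.3 FPKM without (3.02 ± 0.050, SE; limma adjusted p = 3.27e-11). FYV10 and VID28 had log2 fold changes of 2.03 ± 0.072 and 2.00 ± 0.072, and RMD5 one of 1.41 ± 0.076 (SE). VID24, the substrate receptor, was the gene that fell (-0.22 ± 0.071, SE; limma adjusted p = 0.0162) and was named after its values were seen. That call was lost at a threshold of 0.01, after quantile normalization or median centring, and without stress replicate 1, stress replicate 2 or non-stress replicate 1.

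All 7 genes of peroxisomal matrix import rose, by a median of 0.81 on the log2 scale, beside 39.8% of all genes tested. Fewer of the 7 did so under other scalings. With equal FPKM sums 6 were higher, and with equal sums without ribosomal protein genes 5 were higher and 1 was lower. PEX5, the receptor for the targeting tripeptide shown above, had 90.4 and 92.1 FPKM under stress and 56.1 and 47.2 FPKM without (0.81 ± 0.081, SE; limma adjusted p = 9.85e-06). PEX18, a co-receptor of the other import route, had a log2 fold change of 1.80 ± 0.092, and PEX7 and PEX21 both one of 0.86 (SE 0.067 and 0.068).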

How the data were processed

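Polyadenylated RNA of 4 libraries was sequenced as DNA nanoballs, per the labels' protocols. The authors deposited 1 table of FPKM values, rounded to 2 decimals, with 1 column per library. Build R64, RSEM 1.2.8, Bowtie2 2.2.5 and HISAT2 2.1.0 are named in the submitters' processing notes, without roles; read filters are not given in the sources used here. The deposited table also holds gene lengths, coding lengths, since 98.8% divide by 3. All coordinates are 1-based on R64; 5814 of 5897 genes had identical coordinates in the RefSeq R64 annotation, the members among them.

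The members and lists were chosen with earlier results of these data known. Depth was read off the whole-read steps of low FPKM values (35 to 55 per library, all within 0.1 of a whole read after the fit) at 18100000 and 18200000 fragments for stress and 18700000 for each non-stress library; these are estimates, and no count test was run. Replicates differed by more than sampling noise (median chi-square per gene 0.81 in stress and 2.23 in non-stress libraries, against 0.45) and were kept apart.

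Stress was compared with non-stress by limma 3.58.1 in R 4.3.3 (eBayes with a trend, two-sided, 2 residual and 6.51 prior degrees of freedom) on log2(FPKM + 1), which understates changes of low genes. The filter asked for 1 FPKM or more in 2 or more libraries; 5784 genes passed and 113 did not. Benjamini-Hochberg adjustment ran over all genes tested. The step was tested on simulated data. Named were all 8 members, their 2 nearest genes, the genes next to DAL7 and up to 4 genes per list with the largest change; others are said to be named after their values were seen. The carbon source response element was searched by its published consensus. Python 3.11.15, pandas 2.3.3, numpy 2.4.6, scipy 1.17.1 and matplotlib 3.10.9 were used. The values of 1 gene of the partner list are not reported here.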

Additional observations from a re-analysis of the deposited data

How the results depend on the processing

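Of 14 alternatives, covering the pseudocount, the filter, the scaling, the variance model, the replicate block, each library left out and the threshold, each kept the direction and the call of all 8 members (112 values). MLS1 ranged from 6.61 to 7.22 on the log2 scale, ICL1 from 5.62 to 6.33, MDH2 from 4.29 to 4.90, MDH1 from 3.39 to 4.00, FUM1 from 3.34 to 3.95, MDH3 from 2.14 to 2.75, DAL7 from -3.50 to -2.75 and MAE1 from -3.63 to -3.03. The largest adjusted p of any member under these was 1.05e-05, for DAL7 (limma). The scalings moved the median log2 fold change of all genes by 0.23 (quantile normalization), 0.19 (median centring) and -0.41 (equal sums without ribosomal protein genes). Of all genes called, 45.4% were higher in the main comparison, against 31.4% with equal sums without ribosomal protein genes, 53.1% after quantile normalization and 52.1% after median centring, so that the majority of calls turned from lower to higher under the last 2. With the replicate number as a block, 2298 genes were higher and 2775 lower, against 2300 and 2771 without it, and no call of a member changed; same-numbered deviations correlated at -0.005 across genes, so the number pairs nothing. With 2 libraries a group, no permutation test can pass 0.05.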
